A study of Mus musculus with 4 samples.

Results

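The genes of the RUNX transcription factors, Runx1, Runx2 and Runx3, and of their shared partner, Cbfb, were examined for H3K79me2, the dimethyl mark on lysine 79 of histone H3, in mouse thymocytes of the double-negative stage DN3. These 4 genes were taken by name from 21883 protein-coding genes of the RefSeq annotation of GRCm38.p6, the assembly behind mm10. Chromatin immunoprecipitation with an H3K79me2 antibody had been followed by sequencing (ChIP-seq) in C57BL/6 cells. Haematopoietic stem cells were grown to that stage on OP9-DL1, a stromal line that presents a Notch ligand, and received IL-7 (2 ng/mL) and Flt-3L (5 ng/mL). The control cells received DMSO, and the inhibitor cells received A939572, which blocks the stearoyl-CoA desaturase SCD1 (its dose: not given in the sources used here). There was 1 ChIP library per condition, and the 2 input libraries are not analysed here. With no replicates, the values carry no error, no difference between the conditions could be checked against a spread, and no p was computed.

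RUNX proteins bind DNA through their Runt domain, recognise TGTGGT and close variants, and act as activators or repressors depending on their partners. CBFβ, encoded by Cbfb, binds no DNA itself but joins each RUNX protein and raises its affinity for DNA. RUNX1 is needed in blood stem cells and in early thymocytes, where it helps silence Cd4. RUNX3 takes over that silencing in CD8 T cells, and RUNX2 is best known as the master regulator of bone-forming cells. H3K79me2 is written by DOT1L, which travels with elongating RNA polymerase II, so that transcribed genes carry the mark chiefly towards their 5′ end. Runx genes are transcribed from a distal promoter, P1, and a proximal promoter, P2, inside the gene.

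The RefSeq promoter table lists P1 and P2 for Runx1 and Runx3, and 1 start each for Runx2 and Cbfb. The P1 windows of the 3 Runx genes are shown first, because they share a stretch that holds 2 matches to the RUNX motif. Inhibitor peaks covered this stretch at all 3 genes, and a control peak covered it at Runx1. The 30 bases around it are printed 5′ to 3′, with the shared 18 bases in capitals.
Runx1 P1, chr16:92826026-92826055, minus strand: tcataaaCAACCACAGAACCACAAGttggg
Runx2 P1, chr17:44814584-44814613, minus strand: tcacaaaCAACCACAGAACCACAAGtgcgg
Runx3 P1, chr4:135120502-135120531, plus strand: ggtccctCAACCACAGAACCACAAGgccag
The shared run begins 27 bases into the transcript at Runx1 and 22 bases into it at Runx2, counting the annotated start as base 1. At Runx3 it begins 136 bases before the start. The shared run was taken as the longest stretch common to these 3 P1 windows, so its presence in them was fixed in advance. It was found on either strand in 3 of 21262 promoter windows of 300 bases (250 before the start, 50 from it), 0.0141%. All 3 are those P1 windows. The motif TGTGGT, or ACCACA on the other strand, occurs in 15.0% of the 21262 windows, and 319 of them hold 2 or more. It occurs 2 times at P1 of Runx1, 3 times at Runx2 and 2 times at P1 of Runx3, without overlaps. Neither P2 window nor the Cbfb window holds it. The variant TGCGGT, or ACCGCA, occurs in 7.44% of windows and, among these genes, only at Runx2, where it lies 40 bases into the transcript. These are matches of letters, and no RUNX binding was measured.

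The bases before the start are printed for both promoters of Runx1 and of Runx3, because the strong control peak on Runx1 starts at P1 and stops short of P2. Capitals mark ACCACA, which occurs before the start only at P1 of Runx3 among these 4.
Runx1 P1, chr16:92826075-92826324, minus strand: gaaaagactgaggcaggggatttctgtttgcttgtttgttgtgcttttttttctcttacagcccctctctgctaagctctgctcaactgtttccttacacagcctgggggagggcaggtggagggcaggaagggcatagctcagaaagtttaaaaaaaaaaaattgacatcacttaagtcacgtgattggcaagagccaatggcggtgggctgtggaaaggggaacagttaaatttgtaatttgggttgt
Runx1 P2, chr16:92697330-92697579, minus strand: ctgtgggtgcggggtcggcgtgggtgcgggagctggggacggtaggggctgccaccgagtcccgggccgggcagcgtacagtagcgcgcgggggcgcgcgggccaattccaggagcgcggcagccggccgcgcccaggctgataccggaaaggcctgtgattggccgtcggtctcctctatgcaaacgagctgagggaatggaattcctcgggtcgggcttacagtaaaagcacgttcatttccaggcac
Runx3 P1, chr4:135120395-135120644, plus strand: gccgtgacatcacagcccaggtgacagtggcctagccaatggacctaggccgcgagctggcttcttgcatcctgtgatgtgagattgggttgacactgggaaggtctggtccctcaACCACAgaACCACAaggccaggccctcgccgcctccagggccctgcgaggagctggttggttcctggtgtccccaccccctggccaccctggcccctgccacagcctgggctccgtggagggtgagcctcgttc
Runx3 P2, chr4:135152295-135152544, plus strand: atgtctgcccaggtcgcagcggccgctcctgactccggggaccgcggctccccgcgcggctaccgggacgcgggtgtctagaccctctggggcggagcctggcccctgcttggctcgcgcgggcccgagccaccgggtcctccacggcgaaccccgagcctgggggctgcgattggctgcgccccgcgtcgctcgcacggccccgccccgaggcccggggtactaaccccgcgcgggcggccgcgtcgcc
The promoters differ in composition. P1 of Runx1 is 45.0% G and C with 2 CpG dinucleotides in its 300 bases, and the Runx2 window is 45.3% with 2. P2 of Runx1 is 69.0% with 35, P2 of Runx3 is 77.3% with 45, and the Cbfb window is 69.7% with 30. P1 of Runx3 lies between them at 63.7% with 8. The medians over all windows are 56.3% and 13.

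The data are broad regions of enrichment (peaks) called separately in each library, each with a position, a fold enrichment over the caller's background and a −log10 q. The 2 lists are unlike in kind: 124962 control peaks covered 234.8 Mb and 35018 inhibitor peaks covered 233.6 Mb, but only 804 control peaks had q ≤ 0.05, against 6528 inhibitor peaks. Peaks with q above 0.05 are called weak here. Read depth is unknown, and whether depth or enrichment sets these list-wide differences cannot be told apart from treatment with 1 library each. Of 16 markers of DN3 cells, 11 had at least 50% of their body under control peaks and 15 under inhibitor peaks, and median coverage was 64.5% and 100%. Over all coding genes the shares with at least 50% were 5.47% and 26.1%, and median coverage was 2.23% and 0.446%. Of 20 stromal and osteoblast markers 1 reached 50% in each list, Twist1 in control by a weak peak and Thbs1 with inhibitor. The control count is near the share of all coding genes, so it does not set these markers apart. Col1a1, Pdgfra, Sp7, Bglap and Cxcl12 were at 0 in both.

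All 4 genes were covered over more of their body with inhibitor than in control. Genes with at least 50% of their body under peaks are called marked. The inhibitor list marked 4 of 4 genes, against 26.1% of all coding genes, and the control list marked 1 of 4, Runx1, against 5.47%. The inhibitor value exceeded the control value by 25 points or more in 4 of 4 genes, against 30.1% of coding genes, and the reverse held in 0 of 4, against 3.07%. Among the 6006 coding genes of 40 kb or more, a class to which all 4 belong, these shares were 27.9% and 2.01%. The median difference was 47.8 points over the 4 genes and 0 points over all coding genes. With 4 genes these counts describe the family and do not set it apart.

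With peaks at q ≤ 0.05, the inhibitor list marked 3 of 4 genes (19.6% of coding genes) and the control list 0 of 4 (1.33%). Only Runx1 held a control peak at that q, as did 3.92% of coding genes. All 4 held such an inhibitor peak, as did 34.7% of coding genes. At that q the inhibitor value was higher by 25 points or more in 4 of 4 genes, against 26.3% of coding genes, and the control value in 0 of 4, against 0%. Over the first 20 kb, peaks covered at least 50% in 2 of 4 genes in control (8.9% of coding genes with a known strand) and in 4 of 4 with inhibitor (30.8%). At q ≤ 0.05 these were 1 of 4 (2.1%) and 3 of 4 (24.3%).

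**Figure D1:**
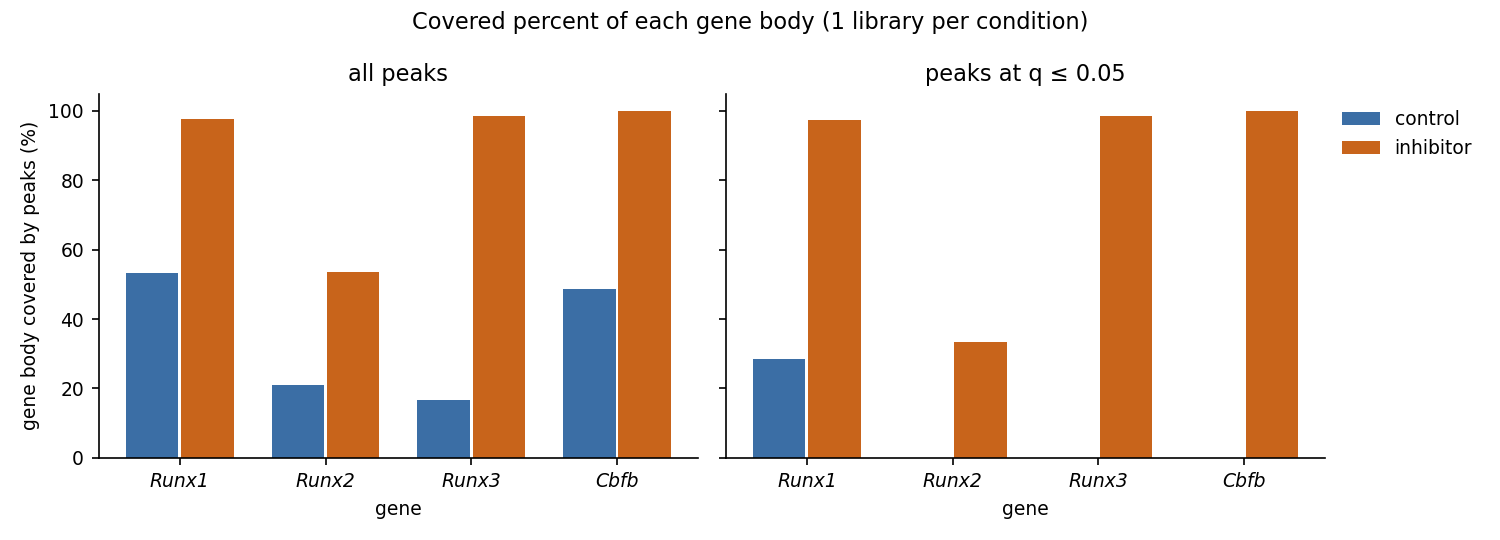
Percent of each gene body covered by control peaks (blue) and inhibitor peaks (orange), for all peaks (left) and peaks at q ≤ 0.05 (right); each bar is 1 library, so there is no error bar. Inhibitor bars are higher for every gene, and at q ≤ 0.05 only Runx1 has a control bar, at 28.4%.

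In the control list the order of coverage was Runx1 (53.4%), Cbfb (48.8%), Runx2 (21.0%) and Runx3 (16.7%). In the inhibitor list it was Cbfb (100%), Runx3 (98.5%), Runx1 (97.8%) and Runx2 (53.5%). Runx3 thus stood last in control and within 1.53 points of full coverage with inhibitor. Without replicates, neighbours in these orders cannot be separated. Control coverage exceeded that of 95.3% of coding genes for Runx1 and 94.2% for Cbfb, but of 80.5% for Runx2 and 76.4% for Runx3. Inhibitor coverage exceeded that of 92.0% to 93.1% of coding genes for Runx1, Runx3 and Cbfb and of 75.3% for Runx2.

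Runx1, the family member that acts in stem cells and early thymocytes (chromosome 16, 92601466 to 92826074, minus strand), is 224.6 kb long and overlaps no other coding gene. Its strongest control peak spanned 63.9 kb (92762270 to 92826147) with a fold of 2.17 and a −log10 q of 1.47, close to the threshold of q = 0.05. It began 73 bases upstream of P1 and ended 63.8 kb into the gene. By width it ranked 22 of 124962 control peaks, and by q 724. The other 14 control peaks on Runx1 were weak, with folds of 1.49 to 1.81, and the widest of them spanned 28984 bases from 78.1 to 107.1 kb into the gene. Cut into 10 equal segments from 5′ to 3′, Runx1 was covered over 100% in segments 1 and 2 in control, 76.6% in segment 5 and 0.4% in segment 8.

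With inhibitor, 1 peak of 221.7 kb (92607142 to 92828876) covered 97.5% of Runx1, with a fold of 4.20 and a −log10 q of 9.68. It began 2.80 kb upstream of P1 and ended 218.9 kb into the gene, and it ranked 12 of 35018 by width. It enclosed 14 of the 15 control peaks. Of the length covered in control, 99.0% was also covered with inhibitor, and of the inhibitor length 54.1% was covered in control. With 97.5% of the gene under 1 inhibitor peak, these overlaps were largely set by the coverage of each list.

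The first 20 kb of Runx1 were covered over 100% in both lists, also at q ≤ 0.05, so covered percent is at its ceiling there and cannot show a difference. The P1 window of 300 bases, most of which lies upstream of the gene, was covered over 41.0% in control and 100% with inhibitor. At −log10 q of at least 5 no control peak remained on Runx1, and inhibitor coverage of the gene was 97.5%. Coverage also differed further in. Between P1 and P2, a distance of 128.7 kb, control peaks covered 81.9% (49.6% at q ≤ 0.05) and the inhibitor peak 100%. From P2 to the end of the gene, 95.9 kb, control peaks covered 15.2%, none of it at q ≤ 0.05, and inhibitor peaks 94.8%. The nearest control peak lay 2855 bases from the P2 start, whereas the inhibitor peak ran across it.

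**Figure D2:**
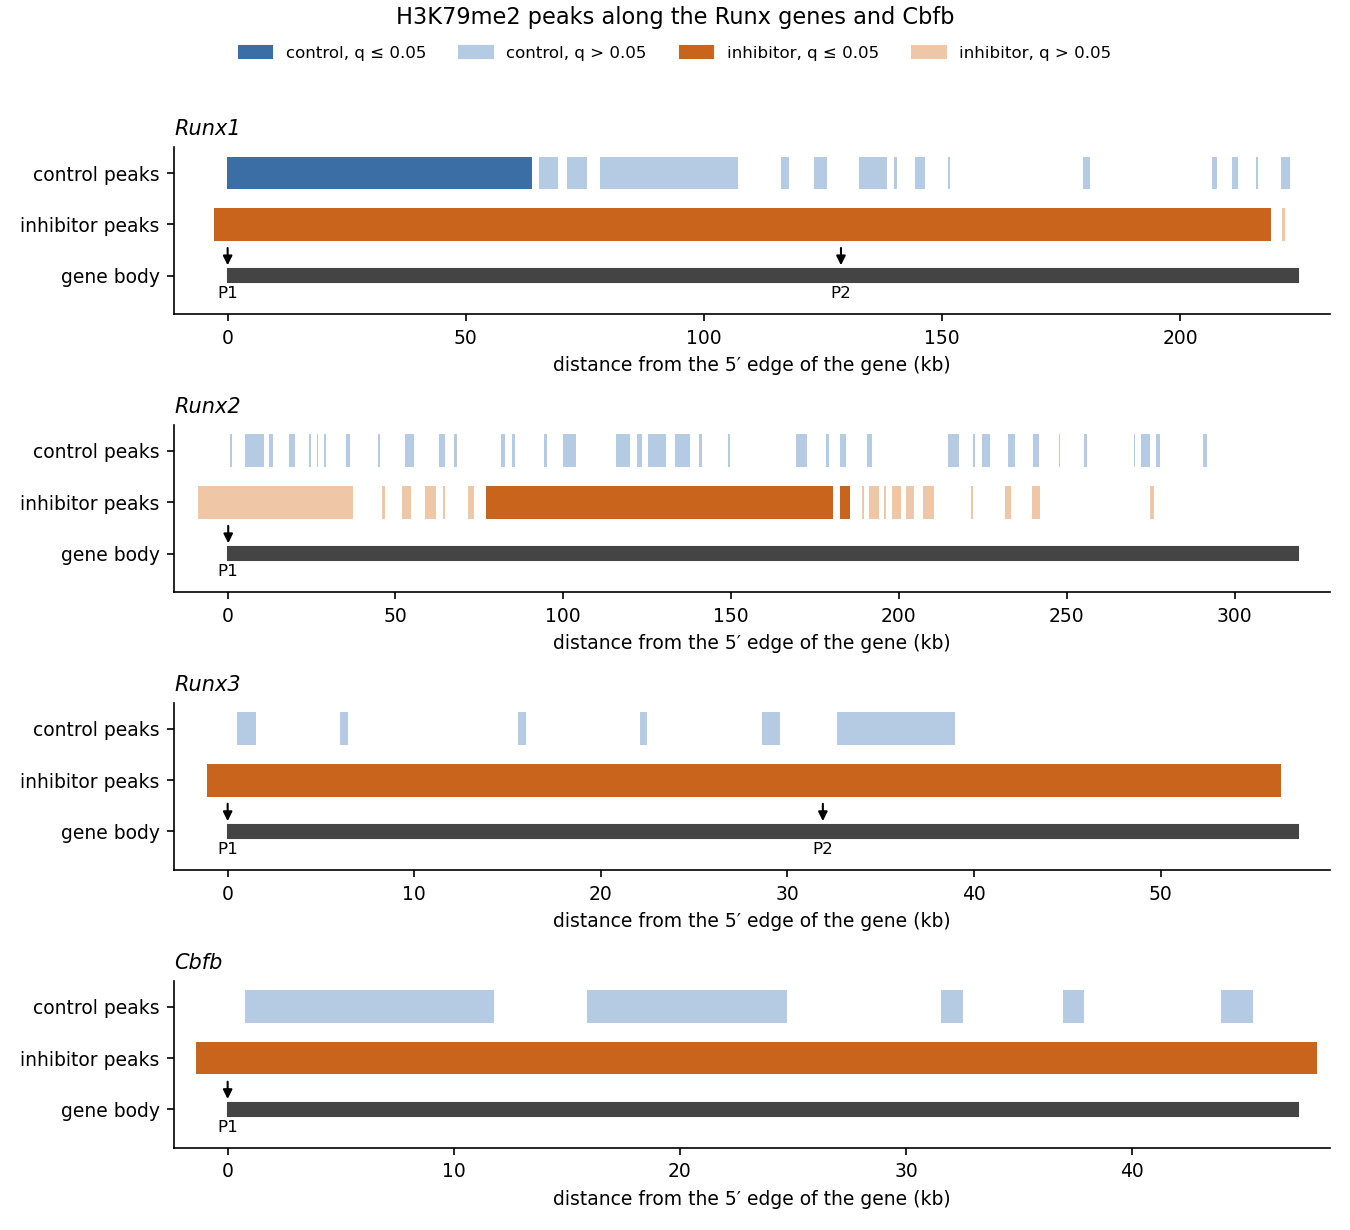
Peaks of each list along the 4 genes, with distance from the 5′ edge of the gene in kb on the horizontal axis and a different scale for each gene; dark boxes are peaks at q ≤ 0.05, pale boxes weak peaks, grey bars gene bodies, and arrows the annotated starts P1 and P2. The dark control box on Runx1 ends 63.8 kb into the gene, while inhibitor boxes run over nearly all of Runx1, Runx3 and Cbfb, and on Runx2 a dark box lies inside the gene.

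Runx3, the CD8 lineage factor (chromosome 4, 135120645 to 135177990, plus strand), is 57.3 kb long. The control list held 6 weak peaks on it, which together covered 9.58 kb. The narrow peak next to P1, 0.485 to 1.54 kb into the gene, had the highest fold of the 6, 1.95, and a −log10 q of 0.405. The widest spanned 6.32 kb from 32.7 to 39.0 kb into the gene, just downstream of P2 (31.9 kb into it), with a fold of 1.56 and a −log10 q of 0.00847. Between P1 and P2 control peaks covered 10.2%, and from P2 to the end 24.8%. The weak control coverage of Runx3 was thus denser after P2, the opposite of the order at Runx1.

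With inhibitor, 1 peak of 57.6 kb (135119551 to 135177113) covered 98.5% of Runx3, with a fold of 3.06 and a −log10 q of 4.76. It began 1.09 kb upstream of P1 and ended 0.877 kb before the end of the gene. Both promoter windows were covered over 100% with inhibitor and 0% in control. With all peaks the difference of 81.8 points was the largest of the 4 genes. At q ≤ 0.05 it was 98.5 points, below the 100 points of Cbfb, and at −log10 q of at least 5 Runx3 was at 0% in both lists. In the first 20 kb it was 90.5 points, with 9.52% under control peaks and 100% under the inhibitor peak. Clic4, the next coding gene (36.0 kb away), shared no peak with Runx3.

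Runx2, the bone lineage factor (chromosome 17, 44495987 to 44814797, minus strand), is 318.8 kb long and was the least covered gene with inhibitor. Its 37 control peaks were all weak and between 0.414 and 5.67 kb wide, with folds of 1.43 to 1.95, and 29 of them had a −log10 q of 0. The inhibitor list held 18 peaks, of which 2 had q ≤ 0.05. The wider of these spanned 103.4 kb (44634513 to 44737904), from 76.9 to 180.3 kb into the gene, with a fold of 2.23 and a −log10 q of 1.83. The other followed it, 2.89 kb wide, with a fold of 1.96 and a −log10 q of 1.61. The coverage of Runx2 at q ≤ 0.05 thus lay inside the gene, in segments 3 to 6 of 10. Segments 4 and 5 were covered over 100% at that q, and the first 20 kb over 0%. A second start of Runx2 was not placed here, so where this coverage lies relative to it is unknown.

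The 5′ end of Runx2 lies under a weak inhibitor peak of 46.2 kb (44777418 to 44823592), with a fold of 2.00 and a −log10 q of 1.15. There Runx2 overlaps Supt3, a subunit of the SAGA coactivator complex, over 37.7 kb, and Supt3 runs on the opposite strand from within Runx2. The stretch shared by both genes was covered over 32.8% in control and 99.2% with inhibitor, and these peaks cannot be given to either gene. Outside it, Runx2 was covered over 19.4% and 47.4%, a difference of 28.0 points, against 32.5 points over its whole body. The part of Supt3 outside Runx2 was covered over 28.0% and 34.1%, with no peak at q ≤ 0.05. Runx2 had the most control peaks outside inhibitor peaks: 11 of its 37 control peaks touched no inhibitor peak. The counts were 0 of 15 on Runx1, 0 of 6 on Runx3 and 0 of 5 on Cbfb. At Runx2 19.0 kb was covered in control only. The share over all control peaks was not computed. Inhibitor peaks covered 53.5% of Runx2 and 97.8% to 100% of the others, so these counts do not set Runx2 apart. The share of inhibitor length that was also covered in control was 28.1% at Runx2 and 17.0% at Runx3. In segments 8, 9 and 10 of the gene control coverage was the higher of the pair (21.4%, 16.4% and 3.94%, against 13.5%, 3.16% and 0%), by weak peaks in both lists.

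Because Runx2 is active in bone and stromal cells, its values were set beside the stromal and osteoblast list. The 20 markers ranged from 0% to 100% in control (median 2.52%) and from 0% to 59.0% with inhibitor (median 0%), with 9 and 17 of them at 0. Of all 21883 coding genes, 9776 were at 0 in control and 10629 with inhibitor, so the control count of 9 is near the share of all genes. None of the 20 was marked at q ≤ 0.05 in either list, against 1.33% of coding genes in control and 19.6% with inhibitor. At that control share a list of 20 genes can hold no marked gene without being set apart. At that q inhibitor peaks covered 44.2% of Pdgfrb and 45.1% of Thbs1. The part of feeder cells in the Runx2 coverage was not tested.

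Cbfb (chromosome 8, 105170674 to 105217989, plus strand) is 47.3 kb long. Its 5 control peaks were all weak and covered 48.8% of it, just under the threshold for a marked gene. The widest spanned 10990 bases from 0.787 to 11.8 kb into the gene (fold 1.73, −log10 q 0.101), and the next 8.83 kb from 15.9 to 24.7 kb (fold 1.68, −log10 q 0.00284). Weak control coverage of Cbfb lay towards its 5′ end: the first 20 kb were covered over 75.4% and the last 20 kb over 16.3%. With inhibitor, 1 peak of 49.5 kb (105169291 to 105218828) covered the whole gene, with a fold of 3.63 and a −log10 q of 6.80. It began 1.38 kb before the gene and ended 0.839 kb after it. The difference was 51.2 points over the gene and 24.6 points in the first 20 kb. The neighbouring D230025D16Rik, 7.16 kb away, was covered over 4.45% and 61.6%, by peaks separate from those of Cbfb.

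The position of the difference varied among the genes. In the first 20 kb the inhibitor list exceeded the control list by 0 points at Runx1, 24.6 at Cbfb, 55.5 at Runx2 and 90.5 at Runx3. In the last 20 kb the differences were 52.0 points at Runx1, 83.7 at Cbfb, 0 at Runx2, where neither list held a peak, and 87.4 at Runx3. Over the 4723 coding genes of 40 kb or more with a known strand, mean inhibitor coverage fell from 40.6% in segment 1 of the gene to 12.9% in segment 10, and mean control coverage from 22.0% to 8.33%. Runx1, Runx3 and Cbfb kept 77.6%, 84.7% and 100% in segment 10 with inhibitor. Of coding genes of 40 kb or more, 4.65% were covered over at least 95% with inhibitor, and 3 of the 4 genes were.

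**Figure D3:**
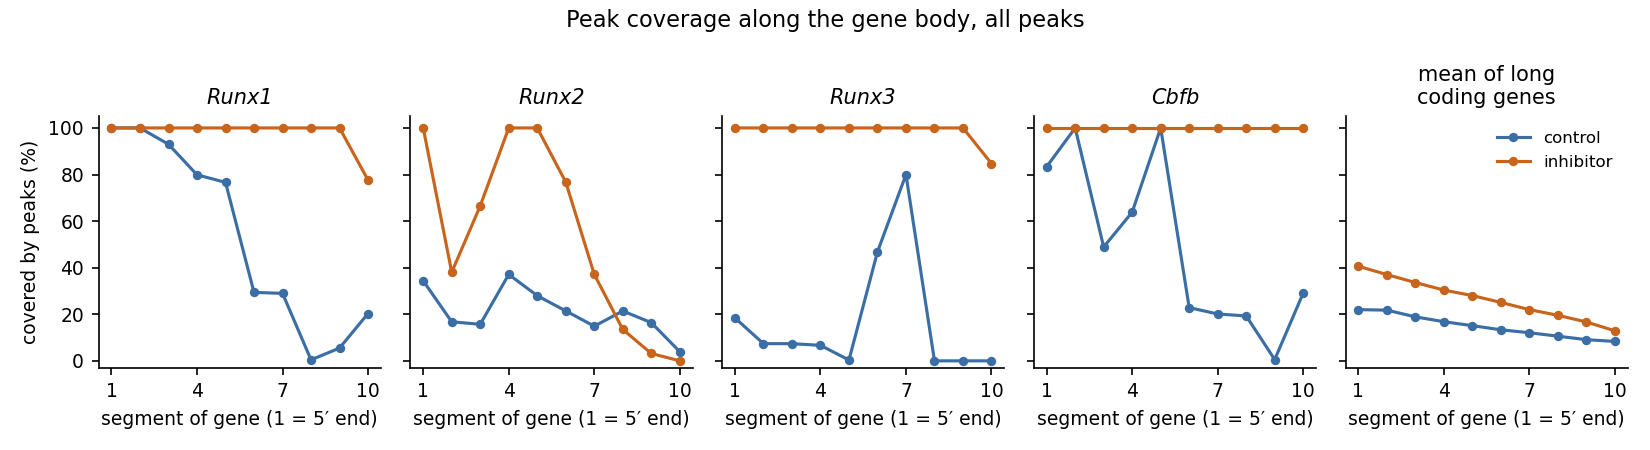
Percent covered by all peaks in 10 equal segments of the gene from 5′ to 3′, for the 4 genes and as the mean over 4723 coding genes of at least 40 kb; blue is the control and orange the inhibitor library. Control coverage of Runx1 starts at 100% and falls, that of Runx3 is highest in segment 7, and inhibitor coverage of Runx2 is highest in segments 1, 4 and 5.

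Among all peaks of their own list, the inhibitor peaks on Runx1, Cbfb and Runx3 ranked 819, 1669 and 2731 by q and 499, 1190 and 2434 by fold, of 35018. The widest Runx2 peak ranked 156 by width but 5571 by q and 5774 by fold. It is thus wider than the peak on Cbfb, which ranked 813 by width, but lower by q and by fold. These ranks hold within a list only.

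**Figure D4:**
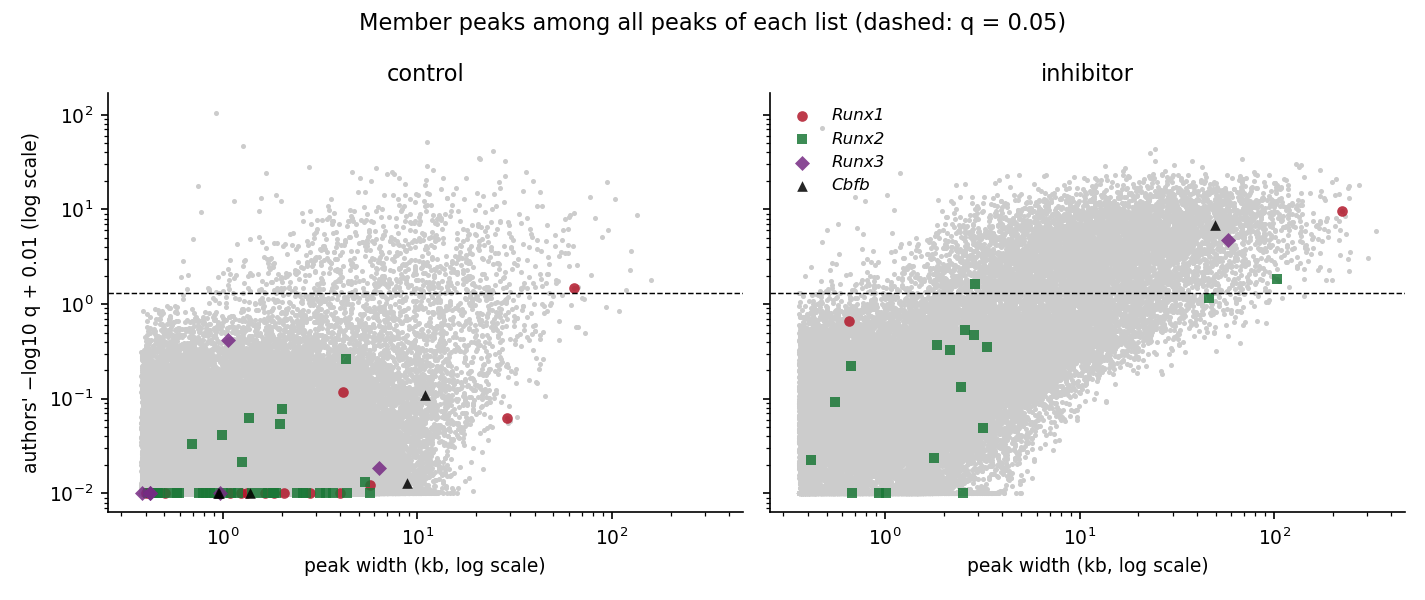
Width in kb (log scale) against the authors' −log10 q (0.01 added, log scale) for every peak of the control list (left) and the inhibitor list (right), in grey, with peaks on the 4 genes in colour; the dashed line is q = 0.05. In the control panel 1 coloured point, the Runx1 peak of 63.9 kb, lies above the line, and in the inhibitor panel 5 do.

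Proteins that work with RUNX factors were read from a list of 30 genes. Of these, 3 were marked in control and 21 with inhibitor, against 5.47% and 26.1% of coding genes. At q ≤ 0.05 the counts were 3 and 16, against 1.33% and 19.6%. The inhibitor value was higher by 25 points or more in 18 and the control value in 0, against 30.1% and 3.07% of coding genes. The median difference was 36.8 points, against 0 points over all coding genes. The largest differences were at Tle5, a short Groucho family member (7.14% and 90.6%), Prmt1, an arginine methyltransferase that modifies RUNX1 (9.23% and 83.5%), and Hdac1, a histone deacetylase (28.1% and 100%). The 3 genes marked at q ≤ 0.05 in control were Cdk6, a G1 kinase (62.5% at that q), Myb, a progenitor and thymocyte factor (72.8%), and Fli1, an ETS factor (54.6%). Runx1t1, the ETO gene that is fused to RUNX1 in leukaemia, and the Hippo coactivators Yap1 and Wwtr1 were covered over 0.27%, 3.85% and 0.37% in control and 0% with inhibitor.

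Genes known as RUNX targets in T cells or progenitors were read from a list of 35, of which 2 (Ets1 and Myb) are also among the partners. Of them, 15 were marked in control and 22 with inhibitor, against 5.47% and 26.1% of coding genes. At q ≤ 0.05 the counts were 8 and 19, against 1.33% and 19.6%. The inhibitor value was higher by 25 points or more in 17 and the control value in 0, against 30.1% and 3.07%. The median difference was 19.6 points with all peaks and 7.22 points at q ≤ 0.05, against 0 points over all coding genes in both. The largest differences were at Cd3e, a T cell receptor subunit (0% and 100%), Ccr7, a chemokine receptor (0% and 81.5%), both by weak peaks, and Notch1 (42.6% and 100%). The 8 genes marked at q ≤ 0.05 in control were Bcl11b, Tcf7, Gata3, Il7r, Cd3g, Cd3d, Myb and Socs1. Targets that RUNX factors are known to control at later stages varied, and most of those named here had no inhibitor coverage. Ifng, Prf1, Eomes, Csf2 and Foxp3 were at 0 in both lists. Tbx21 was covered over 18.0% in control and 0% with inhibitor, and Il2 over 8.07% and 0%. Cd4 was covered over 7.69% and 0%, Cd8b1 over 5.79% and 0%, and Cd8a and Zbtb7b, which encodes the CD4 lineage factor ThPOK, over 0% in both. Gzmb, which encodes the cytotoxic protease granzyme B, was covered over 61.1% and 98.5%, and Itgae, an integrin of tissue T cells, over 11.3% and 62.8%. Itgal was covered over 9.27% and 63.0%. The control coverage of Gzmb, Itgae and Itgal was by weak peaks. Il4, a helper T cell cytokine, was covered over 74.1% and 57.5%, by weak peaks in both lists. Of 12 markers of later T cell stages, 2 were marked in control (Gzmb and S1pr1, by weak peaks), against 5.47% of coding genes. With inhibitor 3 were marked. At q ≤ 0.05 the counts were 0 and 2. The inhibitor counts are near the shares of all coding genes, 26.1% and 19.6%. The inhibitor value was higher by 25 points or more in 3 and the control value in 1, against 30.1% and 3.07%. S1pr1 was covered over 82.7% and 0%, and Cd69 over 39.0% and 100%.

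**Figure D5:**
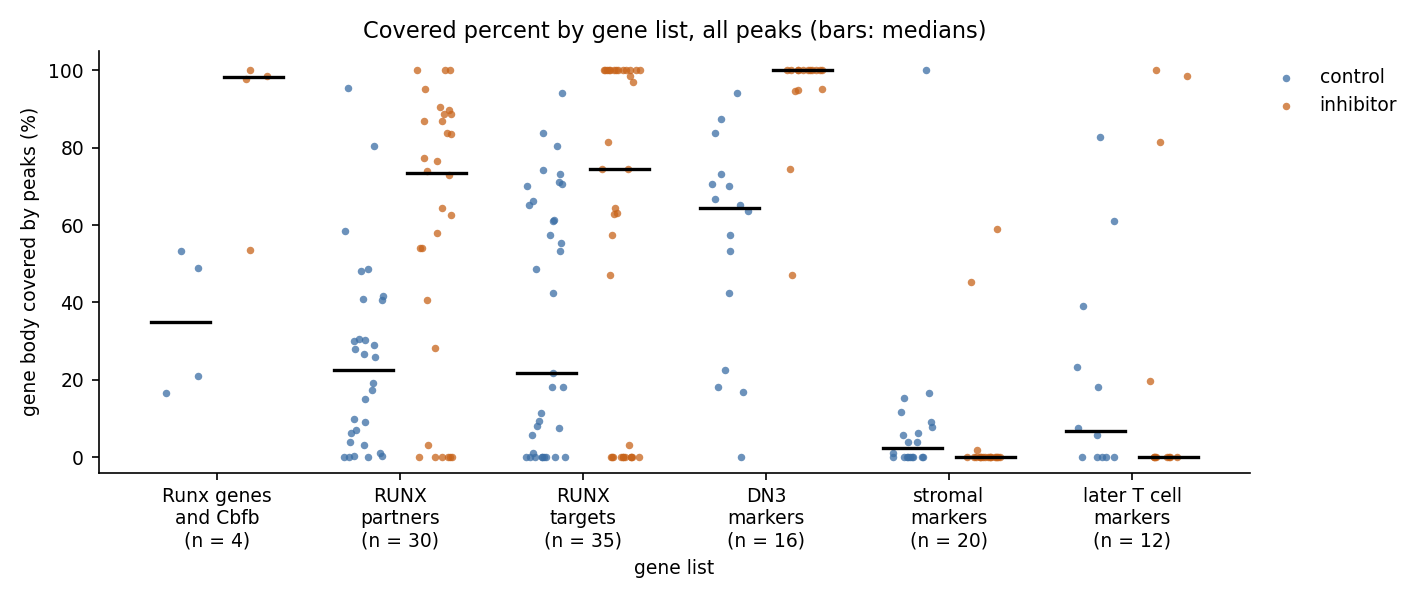
Percent of the gene body covered by all peaks for each gene of 6 lists, in the control (blue) and inhibitor (orange) library; each point is a gene and each black bar the median of the list. Medians of the Runx genes with Cbfb are 34.9% and 98.1%, those of the partners 22.5% and 73.4%, and those of the stromal markers 2.52% and 0%.

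Genes with a pattern most like each member were sought among non-overlapping coding genes within 1.5 times its length, by the Euclidean distance over 4 values (covered percent in each list, by all peaks and at q ≤ 0.05), from 2 libraries. For Runx1 they were Akap13, Etv6 and Tcf12, at distances of 18.1, 20.5 and 23.3 points among 816 candidates. For Runx2 they were Cdyl, Atp8a1 and Chd9 (3.77 to 8.62 points). For Runx3 they were Emilin2, Cdc5l and Wbp1l (3.13 to 4.64 points), and for Cbfb they were Med26, Fbxl5 and Ppp3cb (0.589 to 0.741 points). The nearest candidate lay farther from Runx1 than from the other members. Etv6, for example, was covered over 73.4% in control (25.2% at q ≤ 0.05) and 100% with inhibitor.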

How the data were processed

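H3K79me2 ChIP-seq peaks of 1 control and 1 inhibitor library were used, and the 2 inputs were not analysed here. Per the submitters' processing notes, BWA, MACS2 2.1.0 and mm10 were used; neither their roles nor the caller's options are given in the sources used here. The authors deposited broad peaks called per library, each with a fold enrichment (a ratio), −log10 p, −log10 q and a score (−log10 q times 10, cut to a whole number). The lowest deposited −log10 p was 1.00 in both lists. Read depth is unknown, so no level per read, interval or floor was computed.

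Touching peaks were merged and intersected with RefSeq gene bodies of GRCm38.p6 in Python 3.11.15 (numpy 2.4.6, pandas 2.3.3). Strand, starts and sequences came from the RefSeq promoter table, which gives a strand for 17491 of 21883 coding genes; 3839 overlap another. Covered percent was tested on simulated peaks over 1000 genes. Alternatives were q ≤ 0.05, −log10 q of at least 5, fold of at least 3, lists of equal covered length, merging within 1 kb, the first 20 kb, 10 kb flanks and other thresholds. Named genes were the members, their neighbours sharing peaks and the 3 nearest patterns. From the partner and target lists, the 3 largest differences per direction of at least 25 points were named. So were their genes marked in control at q ≤ 0.05. Not every gene of the marker lists that met this rule is named. A list of 12 myeloid markers is not described above. Of these, 0 were marked in control and 1, Cd68, with inhibitor. The shares of all coding genes were 5.47% and 26.1%. Other genes named were chosen after their values were seen. Members and lists were chosen with earlier results of these data known.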

Additional observations from a re-analysis of the deposited data

How the results depend on the processing

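No paired analysis was possible because each condition has 1 library, and no library could be left out for the same reason. Of the 4 genes, the number marked in control was 1. It became 0 with peaks at q ≤ 0.05, at −log10 q of at least 5 or at a fold of at least 3. It was also 0 when 80% of the body had to be covered, 2 in the first 20 kb, and 4 when any covered base was enough. Only 9776 of 21883 coding genes had no covered base in control. At −log10 q of at least 5, a fold of at least 3, 80% or 50 points, no share over all coding genes was computed. The same holds for differences in the first 20 kb. Counts at these settings describe the listed genes only. The number marked with inhibitor was 4, and 2 (Runx1 and Cbfb) at −log10 q of at least 5. The number with a difference of 25 points or more in favour of the inhibitor was 4, and 2 at −log10 q of at least 5 (Runx1 and Cbfb), 2 in the first 20 kb (Runx2 and Runx3) and 2 at a difference of 50 points (Runx3 and Cbfb). Partner genes numbered 18, and 10 in the first 20 kb (21 of 30 with a strand) and 9 at 50 points. Target genes numbered 17, and 10 at −log10 q of at least 5, 10 at a fold of at least 3, 9 in the first 20 kb (28 of 35 with a strand) and 6 at 50 points. Of the other counts, 40 stayed within 1.5 times, or at 0 where the main count was 0. The latter are the genes higher in control, a count that could not move at q ≤ 0.05, where it was 0 over all coding genes. For single genes, 24 alternative differences stayed at 25 points or more, none changed sign, and 5 dropped lower: Runx2 at −log10 q of at least 5 and at a fold of at least 3, Runx3 at −log10 q of at least 5, and Runx1 and Cbfb in the first 20 kb. Leaving out the stretch that Runx2 shares with Supt3 was chosen after seeing the data.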

Other observations

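Inside Runx1 lies Gm30281, a long non-coding RNA gene of 5032 bases on the opposite strand (chromosome 16, 92762209 to 92767240), 58.8 to 63.9 kb from the Runx1 start. The inner edge of the strong control peak on Runx1 lies 61 bases from the start of Gm30281, so that the peak covered 98.8% of that gene. The inhibitor peak covered 100% of it and ran on. Runx2os3, a non-coding gene within Runx2, was covered over 0% in both lists, and AI225912 within Cbfb over 0% in the control and 100% with inhibitor. The weak control peak on Twist1, a gene that restrains RUNX2 in bone cells, covered 100% of its 2.16 kb, with 0% with inhibitor. Of 14 stem and progenitor markers, 1 was marked in control (Kit, by weak peaks) and 3 with inhibitor (Kit, Mycn and Hhex). These counts are near the shares of all coding genes, 5.47% and 26.1%. Median coverage of the 14 was 4.26% and 3.32%. Coverage was 55.3% and 100% at Kit, 11.1% and 100% at Mycn, and 0% and 70.3% at Hhex, at Hhex by weak peaks only. Erg, an ETS factor, was covered over 25.3% and 49.8%, or 4.70% and 47.6% at q ≤ 0.05. Flt3 (12.3% and 3.47%) and Cd34 (24.0% and 9.57%) were lower with inhibitor, but by less than 25 points and by weak peaks only in both lists. Gata2 and Hoxa9 were at 0 in both lists.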
